A study of Homo sapiens with 62 samples.

Results

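The immediate early genes were followed in human embryonic stem cells (hESC) and in organoids grown from them. The members were the rows of the deposited expression table whose symbol stood on a list of 44 immediate early genes, and all 44 of 44 were found among 37415 genes. Expression was measured by polyA RNA-seq in 62 libraries, 31 groups of 2, all from WIBR3, an established hESC line. In a time course, WT hESC without PF-127 (treatment NT96, although the titles read PN96) and with PF-127 (treatment PN96) were sampled at 0, 1, 4 and 24 h, which gives 8 groups. PF-127, or Pluronic F-127, is a block copolymer that gels on warming. A control labelled CTR and 2 clones in which the long non-coding RNA gene NEAT1 was knocked out were sampled as hESC, as cortical organoids on day 19, nephron organoids on day 13, hepatic organoids on day 21 and lung organoids on day 19, 15 groups in all. All of these groups, controls included, are described as taken with PN96. Each clone is 1 derived line, so a trait of the clone and the loss of NEAT1 cannot be told apart within it. WT organoids make up the last 8 groups: cortical on day 53 (PN96), day 54 (Chip) and day 60 (SPIN), hepatic on day 17 (PN96 and Chip) and day 21 (PN96), lung on day 20 (PN96) and nephron on day 7 (PN96). The labels do not spell out NT96, PN96, Chip or SPIN.

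Immediate early genes are those a cell transcribes first after a growth factor, a change of medium, mechanical stress or an injury, without the need for new protein. Signals through MAP kinases and calcium reach transcription factors that already sit on their promoters, among them SRF with its partners at CArG boxes and CREB at cyclic AMP response elements (CRE). Many products are transcription factors (FOS, JUN, EGR, ATF3, KLF and NR4A families), and others act as brakes on the same signals. The DUSP phosphatases inactivate MAP kinases, the Sprouty proteins SPRY2 and SPRY4 restrain receptor tyrosine kinase signalling, and ZFP36 promotes the decay of short-lived mRNAs. In hESC, FGF signalling keeps part of this programme active, with SPRY4, DUSP6 and EGR1 known as its targets.

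Levels are the authors' deposited TPM, a measure of abundance corrected for transcript length, so that levels of different genes can be set side by side. Differences are log2 changes ± standard error from limma on log2(TPM + 1), a scale that understates how much a gene with few transcripts changes. Genes entered a fit if at least 2 of its libraries held 1 TPM, and a gene rose, fell or was called where the p-value adjusted over all genes tested was under 0.05. Library depth is unknown, since TPM does not keep it. The labels do not name separate cultures behind a pair of libraries, and the p-values thus measure only how far such libraries lie apart. In bulk samples, fewer cells of a type and less RNA per cell cannot be told apart.

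As a check of the labels, NEAT1 stood at 1.78 to 44.3 TPM in CTR and at 0 to 0.869 TPM in the clones, lower in every clone library than in the CTR libraries of its cell type. The low end was hESC CTR, at 1.78 to 1.95 TPM, while nephron and hepatic CTR stood at 30.7 to 44.3 TPM. Cortical markers summed to 406 to 1823 TPM in cortical organoids and to at most 55.8 TPM elsewhere, and hepatic markers to at least 2788 TPM in hepatic organoids and at most 1575 TPM elsewhere. The nephron markers summed to 33.0 to 148 TPM on day 13, but to only 3.39 to 4.84 TPM in the nephron organoids of day 7. The lung markers did not set the lung organoids apart, at 190.5 to 353 TPM against 317 to 459 TPM in hESC, and SFTPC was at 0 TPM in lung CTR, so "lung" is used here as the label only. POU5F1, a pluripotency factor, stayed measurable in lung CTR at 17.8 to 70.0 TPM and in hepatic CTR at 34.5 to 35.1 TPM, against 129 to 151 TPM in hESC CTR. The second cortical SPIN library held 1575 TPM of hepatic and 3015 TPM of stromal markers, the first 82.7 and 412 TPM.

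Promoters of 6 members are shown because these genes had some of the largest rises and falls in the first hour of the time course. The sequences are the 250 bases before the transcript start, read 5′ to 3′ on the gene's strand, from RefSeq on GRCh38.p14. The windows are chr19:45467746-45467995 (plus strand) for FOSB, chr19:48872171-48872420 (plus strand) for PPP1R15A, chr9:107489770-107490019 (minus strand) for KLF4, chr10:3785210-3785459 (minus strand) for KLF6, chr19:12791236-12791485 (plus strand) for JUNB and chr5:138465229-138465478 (plus strand) for EGR1. Capitals mark matches on either strand to the CArG box, the short CRE site TGACG, the AP-1 site TGANTCA, the EGR site GCGNGGGCG and the TATA box TATAAA.
FOSB: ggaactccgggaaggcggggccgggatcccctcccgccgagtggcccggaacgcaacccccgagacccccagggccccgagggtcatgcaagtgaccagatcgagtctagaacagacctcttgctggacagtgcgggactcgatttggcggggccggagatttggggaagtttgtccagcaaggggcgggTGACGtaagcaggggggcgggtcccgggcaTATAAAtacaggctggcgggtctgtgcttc
PPP1R15A: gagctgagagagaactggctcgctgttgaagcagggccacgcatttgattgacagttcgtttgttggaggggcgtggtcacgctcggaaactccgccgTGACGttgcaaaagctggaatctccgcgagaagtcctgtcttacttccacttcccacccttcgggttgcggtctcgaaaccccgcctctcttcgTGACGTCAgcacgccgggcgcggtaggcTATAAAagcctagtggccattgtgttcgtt
KLF4: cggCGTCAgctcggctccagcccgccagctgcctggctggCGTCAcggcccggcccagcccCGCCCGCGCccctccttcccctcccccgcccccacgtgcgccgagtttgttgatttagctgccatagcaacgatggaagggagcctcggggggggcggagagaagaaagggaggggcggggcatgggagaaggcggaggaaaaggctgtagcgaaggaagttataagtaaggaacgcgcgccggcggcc
KLF6: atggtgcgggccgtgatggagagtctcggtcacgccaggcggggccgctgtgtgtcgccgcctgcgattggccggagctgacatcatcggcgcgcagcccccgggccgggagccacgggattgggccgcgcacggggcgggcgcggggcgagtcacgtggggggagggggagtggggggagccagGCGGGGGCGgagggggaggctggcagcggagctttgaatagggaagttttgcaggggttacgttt
JUNB: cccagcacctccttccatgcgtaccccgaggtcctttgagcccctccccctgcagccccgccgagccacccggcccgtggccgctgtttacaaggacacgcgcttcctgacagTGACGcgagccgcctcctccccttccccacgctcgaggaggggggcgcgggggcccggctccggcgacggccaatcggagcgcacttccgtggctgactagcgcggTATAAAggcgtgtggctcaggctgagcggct
EGR1: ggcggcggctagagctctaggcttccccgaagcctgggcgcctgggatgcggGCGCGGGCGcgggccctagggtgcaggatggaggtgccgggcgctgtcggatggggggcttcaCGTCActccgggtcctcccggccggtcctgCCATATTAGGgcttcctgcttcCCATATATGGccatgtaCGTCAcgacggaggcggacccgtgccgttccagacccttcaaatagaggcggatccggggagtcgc

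EGR1, the zinc-finger factor that fell most over the course, holds 2 CArG boxes in this window, at -105 to -96 and -83 to -74 from the start, and an EGR site at -198 to -190. FOSB and PPP1R15A, which rose most in the first hour, each have a short CRE site and a TATA box, and so does JUNB, which fell most. PPP1R15A has a full CRE, TGACGTCA, at -58 to -51. KLF6 holds an EGR site and no match to the other motifs searched. Over windows of 300 bases, 250 before and 50 from the start on, the table gave 35 members and 27305 promoters in all. A short CRE site was found in 21 (60.0%) against 25.0% of all promoters, a full CRE in 4 (11.4%) against 1.98%, an EGR site in 10 (28.6%) against 9.28%, a TATA box in 7 (20.0%) against 12.0%, a CArG box in 2 (5.71%) against 1.29% and an AP-1 site in 1 (2.86%) against 7.76%. The short site is contained in the full CRE, and a match is a description of letters, not of binding.

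In the first hour of the time course the immediate early genes of hESC split into genes that rose and genes that fell. Of 40 members tested, 14 rose and 8 fell between 0 and 1 h, 22 in all, where 12.5% of all genes were (5.31% higher and 7.21% lower). Their median log2 change was 0.13 against -0.03 over all genes. The risers were led by FOSB and PPP1R15A and the fallers by JUNB and EGR1, while FOS, the best known member, showed no difference that passed the test. EGR3, EGR4, IER5L and NR4A3 did not reach the level for testing.

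FOSB, a partner of JUN in the AP-1 transcription factor, was at 1.14 and 1.52 TPM without PF-127 and 1.44 and 1.23 TPM with it at 0 h. At 1 h it was at 15.9 and 13.7 TPM without and 16.6 and 16.6 TPM with PF-127. All 4 libraries of 1 h lay above all 4 of 0 h, where 19% of all genes had no overlap between these times, a 7.15-fold rise on the TPM + 1 scale (log2 change 2.84 ± 0.10, adjusted p = 4.6e-08). FOSB then fell to 1.77 to 4.01 TPM at 4 h and to 0.376 to 0.627 TPM at 24 h, below its starting level.

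PPP1R15A (GADD34), which brings a phosphatase to eIF2alpha and so lets translation resume after stress, went from 15.4 to 20.9 TPM at 0 h to 51.1 to 55.3 TPM at 1 h. The ranges did not overlap (log2 change 1.52 ± 0.09, adjusted p = 2.3e-06). KLF6, a zinc-finger factor, stood at 17.3 to 19.8 TPM at 0 h, 51.5 to 54.6 TPM at 1 h and 21.7 to 26.7 TPM at 4 h. CSRNP1, a nuclear protein induced by AXIN1, stood at 10.1 to 11.9 TPM, 28.4 to 31.0 TPM and 6.08 to 9.13 TPM at the same times. FOSB, PPP1R15A, KLF6 and CSRNP1 each rose from 0 to 1 h and fell from 1 to 4 h. PLK2 (log2 change 1.15 ± 0.13, adjusted p = 3.8e-04), SGK1, MAFF, DUSP1 and MCL1 did so as well, with first steps of 0.24 (MCL1) to 0.66 (SGK1) on the log2 scale for the last 4.

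A second set kept rising or stayed high at 4 h. ATF3, a stress-induced transcription factor of the ATF/CREB family, was at 6.10 to 7.31 TPM at 0 h, 12.6 to 16.2 TPM at 1 h, 28.9 to 35.0 TPM at 4 h and 5.40 to 6.46 TPM at 24 h. Its ranges at 0, 1 and 4 h did not overlap. Of all genes, 19% had no overlap between 0 and 1 h and 32.3% between 1 and 4 h. JUN, the core AP-1 subunit, went from 27.3 to 30.1 TPM to 53.9 to 60.2 TPM and then 68.3 to 85.4 TPM, and was at 45.1 to 47.8 TPM at 24 h. JUN was thus still above its starting level at 24 h (log2 change 0.67 ± 0.05, adjusted p = 2.2e-06). RHOB, a small GTPase of the actin cytoskeleton, rose from 37.2 to 46.1 TPM to 84.7 to 93.1 TPM at 1 h and was at 80.1 to 107 TPM at 4 h. KLF4, one of the reprogramming factors, rose from 2.31 to 3.43 TPM to 9.39 to 10.4 TPM at 1 h (log2 change 1.45 ± 0.08, adjusted p = 2.1e-06) and was at 8.62 to 10.5 TPM at 24 h. Between 0 and 24 h, KLF4 had the largest called rise among the members (log2 change 1.39 ± 0.08, adjusted p = 7e-07).

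EGR1 went the other way at every step. It was at 66.1 and 62.4 TPM without and 62.3 and 61.7 TPM with PF-127 at 0 h, 29.96 to 38.8 TPM at 1 h, 3.64 to 5.54 TPM at 4 h and 0.897 to 2.10 TPM at 24 h. Successive times did not overlap, as in 19%, 32.3% and 40% of all genes at the 3 steps taken singly. The steps were -0.87 ± 0.13, -2.67 ± 0.13 and -1.08 ± 0.13 on the log2 scale, and EGR1 was the only 1 of the 40 tested members called lower at all 3. How many of all genes were called lower at all 3 was not counted. FOS was at 28.3 to 31.9 TPM at 0 h and 26.3 to 37.1 TPM at 1 h, ranges that overlap (log2 change 0.07 ± 0.07, adjusted p = 0.6). It then fell to 10.1 to 13.3 TPM at 4 h (log2 change -1.35 ± 0.07, adjusted p = 2.2e-07) and to 5.22 to 6.49 TPM at 24 h.

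Among the Sprouty and DUSP genes, SPRY2, SPRY4, DUSP2 and DUSP6 fell at 1 h, DUSP1 and DUSP5 rose (DUSP5 by 0.28 ± 0.08 on the log2 scale) and DUSP4 missed the threshold (-0.15 ± 0.14, adjusted p = 0.56). SPRY4 went from 61.0 to 65.9 TPM to 34.2 to 36.2 TPM (log2 change -0.84 ± 0.04, adjusted p = 5.2e-07), then rose to 45.4 to 52.7 TPM at 4 h and 67.4 to 81.3 TPM at 24 h. SPRY2 fell from 39.7 to 45.6 TPM to 25.2 to 28.6 TPM and was at 40.6 to 51.3 TPM by 4 h. JUNB, which can restrain JUN, fell from 12.4 to 15.95 TPM to 5.73 to 7.71 TPM (log2 change -0.90 ± 0.14, adjusted p = 0.0037) and was at 11.6 to 17.0 TPM at 4 h. SPRY4, SPRY2 and JUNB each fell at 1 h and rose again by 4 h. The phosphatases DUSP6, which acts on ERK, and DUSP2 fell by 0.53 and 0.69 on the log2 scale at 1 h, and the synaptic gene ARC fell by 0.69. IER5 fell by 0.33 (adjusted p = 0.043), with ranges that overlap.

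**Figure D1:**
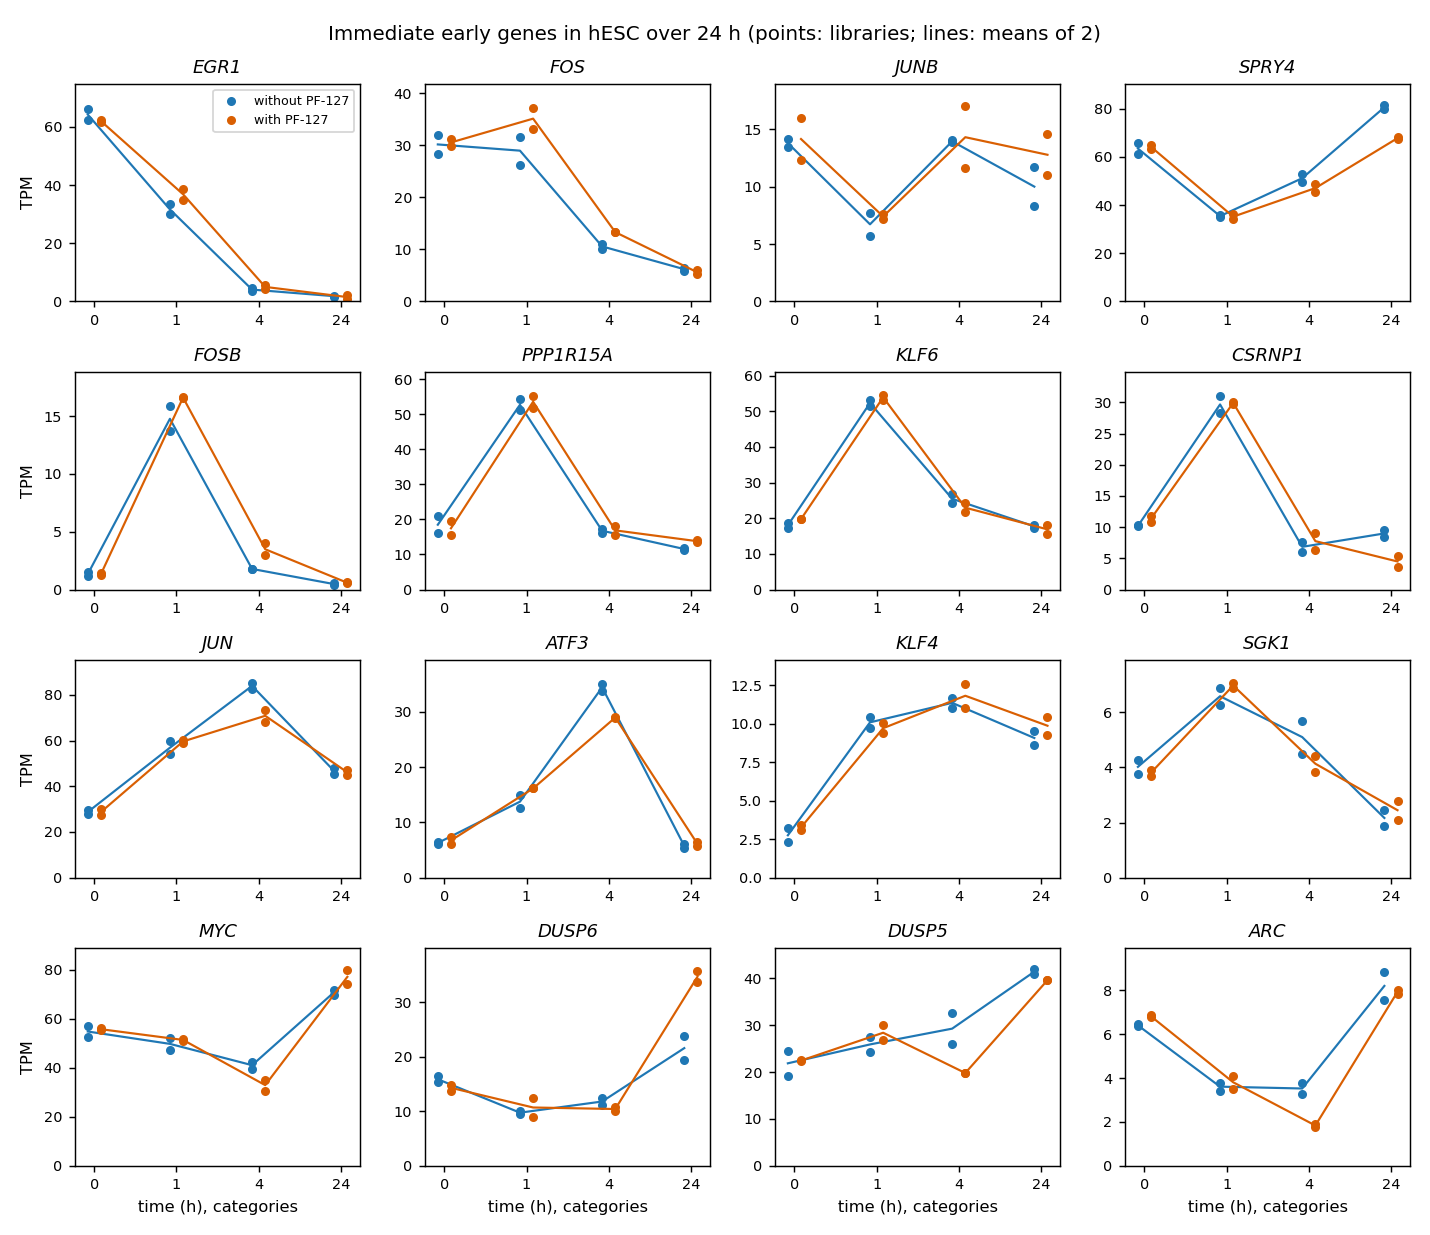
TPM of 16 immediate early genes (vertical axes, from 0) in hESC at 0, 1, 4 and 24 h (horizontal axes, times as equally spaced categories), with points for libraries and lines through the means of 2, without and with PF-127. FOSB, PPP1R15A, KLF6 and CSRNP1 are highest at 1 h, ATF3 and JUN at 4 h, and EGR1 falls at each step.

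Between 1 and 4 h, 25 of the 40 tested members were called, 9 higher and 16 lower, where 35.8% of all genes were (14.2% higher and 21.5% lower). The median was -0.18 against -0.05 over all genes. Falls were led by EGR1, FOSB (-2.24 ± 0.10), CSRNP1 (-1.90 ± 0.12), PPP1R15A (-1.60 ± 0.09), FOS and KLF6 (-1.11 ± 0.06), with PLK2 (-0.81 ± 0.13) and DUSP1 (-0.67 ± 0.13) next. Rises were led by ATF3 (1.04 ± 0.07), JUNB (0.90 ± 0.14), SPRY2 (0.75 ± 0.07) and FOSL2 (0.59 ± 0.13), with NR4A2, SPRY4, JUN and IER5 at 0.31 (IER5) to 0.49 (NR4A2). Of the called members, ARC and IER5 had overlapping ranges at 1 and 4 h. By arm, the log2 difference of ARC was -0.03 without and -0.76 with PF-127 at this step, that of IER5 0.55 without and 0.07 with PF-127, that of FOSL2 0.31 without and 0.87 with PF-127, that of JUN 0.55 without and 0.24 with PF-127, that of MYC -0.27 without and -0.63 with PF-127 and that of SRF -0.14 without and -0.47 with PF-127.

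Between 4 and 24 h, 24 were called, 9 higher and 15 lower, where 48.1% of all genes were (34.3% higher and 13.8% lower). The median was -0.22 against 0.11 over all genes. ATF3 fell by 2.23 ± 0.07 on the log2 scale, FOSB by 1.21 ± 0.10, RHOB by 1.06 ± 0.06, FOSL1 by 0.97 ± 0.14 and JUN by 0.72 ± 0.05, with EGR1, FOS and SGK1 also among the 8 largest falls. ARC rose by 1.34 ± 0.07, DUSP6 by 1.23 ± 0.09, MYC by 0.99 ± 0.05, DUSP2 by 0.86 ± 0.11 and DUSP5, a nuclear ERK phosphatase, by 0.73 ± 0.08, with SPRY4, PLK2 and DUSP4 at 0.47 (DUSP4) to 0.58 (SPRY4). Of the called members, PLK2 and SRF had overlapping ranges at 4 and 24 h. By arm, the log2 difference of DUSP6 was 0.82 without and 1.64 with PF-127 at this step, that of ZFP36 -1.07 without and -0.29 with PF-127 and that of SRF 0.12 without and 0.35 with PF-127. MYC, the growth-promoting transcription factor, was at 30.7 to 42.5 TPM at 4 h and at 69.8 to 79.9 TPM at 24 h. These ranges did not overlap, as in 40% of all genes.

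Over the whole course, 24 h against 0 h, 8 members were higher and 10 lower, 18 called, where 39.4% of all genes were (25.0% higher and 14.4% lower). The median was -0.11 against 0.06 over all genes. EGR1 and FOS had the largest falls, 4.62 ± 0.13 and 2.19 ± 0.07 on the log2 scale, followed by ZFP36 at 0.94 ± 0.11. FOSL1, EGR2, CSRNP1, FOSB and SGK1 fell by 0.58 (SGK1) to 0.72 (FOSL1). After KLF4, the rises were those of DUSP5 (0.85 ± 0.08), PLK2 (0.83 ± 0.13), DUSP6 (0.82 ± 0.09), JUN, MYC, ARC and SPRY4 (0.21 ± 0.04). The arms differed by more than 1.5 times from this average for several members. The log2 difference of PLK2 was 0.23 without and 1.43 with PF-127 between 0 and 24 h, that of CSRNP1 -0.17 without and -1.19 with PF-127, that of DUSP6 0.41 without and 1.22 with PF-127, that of FOSL1 -1.01 without and -0.42 with PF-127, that of SPRY4 0.34 without and 0.08 with PF-127 and that of DUSP1 -0.28 without and -0.58 with PF-127. With 1 arm fitted alone, the difference of PLK2, CSRNP1 and DUSP1 missed the threshold without PF-127 (adjusted p = 0.4, 0.32 and 0.33), and that of FOSL1 and SPRY4 missed it with PF-127 (adjusted p = 0.22 and 0.43). Of the 40 tested members, 15 had their highest mean at 1 h, 11 at 4 h, 8 at 0 h and 6 at 24 h. IER2, IER3, NR4A1, BTG2, SIK1 and PLK3, 6 in all, were called at none of the 3 steps. IER2 stayed between 86.0 and 116 TPM in all 16 libraries. For all genes, the time of the highest mean, the number of steps called and the order of rises and falls were not counted. Whether these patterns are particular to the members can thus not be said. IER3 has 2 identifiers in the table and SIK1 a near-identical copy in the genome, so their values are uncertain.

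**Figure D2:**
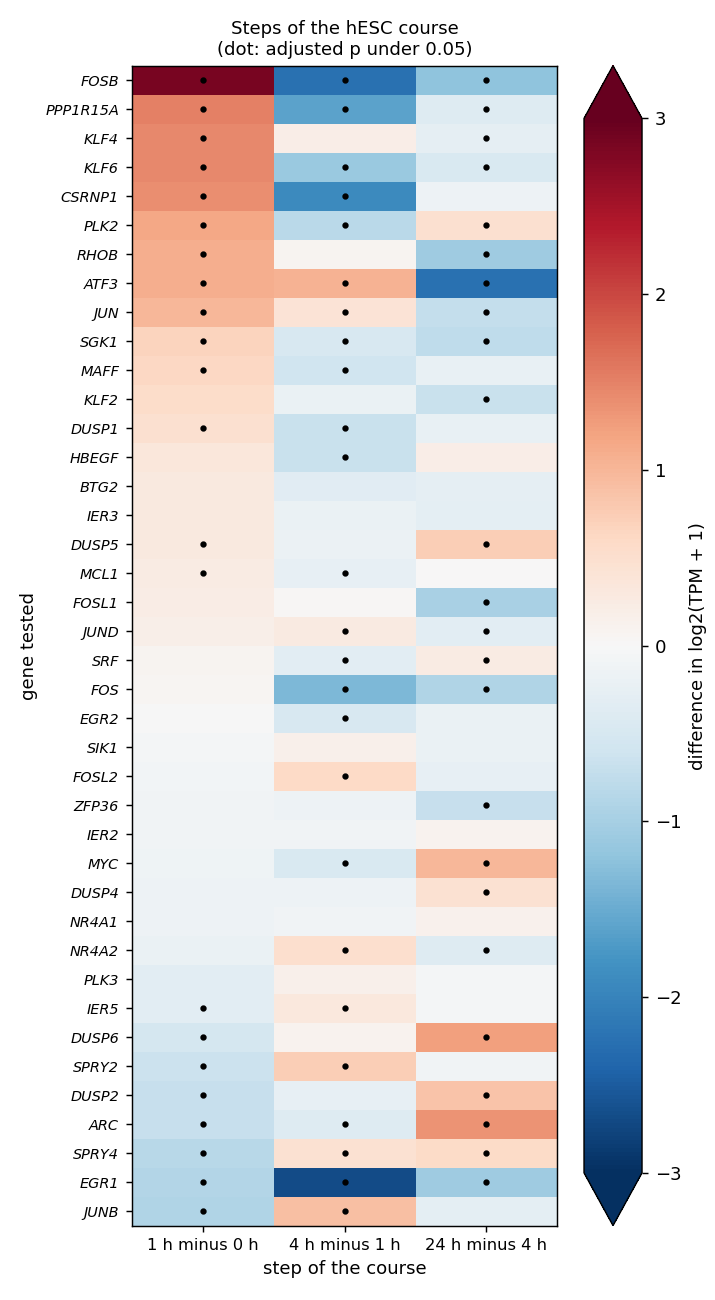
Difference in log2(TPM + 1) between successive times (columns) for the 40 members tested (rows, ordered by the first step), averaged over both arms, with a dot where the adjusted p was under 0.05. Red at the top of the first column is followed by blue in the second for FOSB, PPP1R15A, KLF6 and CSRNP1, and blue at the bottom by red for JUNB, SPRY4 and SPRY2.

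The scale of the values bears on the split into rises and falls. After rescaling by size factors 15 members rose and 8 fell at 1 h, 10 members rose and 16 fell from 1 to 4 h, 8 members rose and 20 fell from 4 to 24 h and 7 members rose and 12 fell from 0 to 24 h. Among all called genes the higher share moved from 42.4% to 53.1%, from 39.8% to 51.2%, from 71.3% to 49.6% and from 63.5% to 50.5% at these comparisons. With the libraries without PF-127 only, 10 members were called at 1 h, and with the libraries with PF-127 only, 11. In the latter the log2 difference of EGR1 was -0.74 at 1 h (adjusted p = 0.15), and JUNB missed the threshold in both (adjusted p = 0.058 without and 0.11 with PF-127).

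Other genes of the same kind and of the signalling route moved in both directions too. Of 26 other early response genes 25 were tested, and 5 rose and 6 fell at 1 h, with a median log2 change of -0.04. Over all genes the median was -0.03, with 5.31% higher and 7.21% lower, the shares to set beside each list here. HES1, a Notch target and repressor, rose from a mean of 5.91 to 116 TPM, GADD45B, a stress sensor, from 3.53 to 29.3 TPM and CCN1, a matricellular protein, from 58.0 to 226 TPM. SPRY1 fell from 13.3 to 5.69 TPM, PHLDA1 from 27.2 to 17.1 TPM and LIF from 1.42 to 0.670 TPM. Of 22 tested genes for the MAP kinase route and its transcription factors, 2 rose (FGF2 and ELK4) and 4 fell, CREB1 most (-0.28 ± 0.05), followed by ELK3 and SOS1. Of 9 tested heat shock genes 3 rose, the chaperone genes HSPA8, HSP90AA1 and HSPD1, and 0 fell. Of 6 tested interferon response genes 0 were called, with ISG15 at a mean of 29.4 TPM at 0 h and 33.9 TPM at 1 h and IFIT1 at 2.36 and 2.72 TPM.

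PF-127 itself was compared at each time, with against without it. At 0 h and at 1 h none of the 40 tested members was called by limma, with 0 and 3 of them at unadjusted p under 0.05, where 0.0% of all genes were called at either time. The 3 at 1 h were FOS, ATF3 and IER3. Over all genes, 1029 at 0 h and 1370 at 1 h of 19294 tested were at unadjusted p under 0.05. FOS at 1 h was at 26.3 and 31.6 TPM without and 33.1 and 37.1 TPM with PF-127, which do not overlap (log2 change 0.27 ± 0.10, adjusted p = 0.63), as in 39.4% of all genes. At 1 h EGR1 differed by 0.21 ± 0.19, adjusted p = 0.89, and JUN by 0.07 ± 0.07, adjusted p = 0.9.

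At 4 h 1 member was called, where 0.213% of all genes were (0.14% lower). ARC, known for its role at synapses, was at 3.28 and 3.76 TPM without and 1.77 and 1.89 TPM with PF-127 (log2 change -0.67 ± 0.11, adjusted p = 0.035). Both libraries with PF-127 lay under both without, and 45.5% of all genes had no overlap at this time. The call ended without a filter on low values (adjusted p = 0.051) and in a fit of the 4 libraries of 4 h alone (adjusted p = 0.35). The count of called members was 0 without any 1 of the 0 h libraries, the 1 h libraries without PF-127, the 4 h libraries without PF-127, the second 4 h library with it or the 24 h libraries with it, and 3 without the first 4 h library with it. Among members that missed the threshold, FOSB stood at 1.77 and 1.80 TPM without and 2.97 and 4.01 TPM with PF-127 (log2 change 0.68 ± 0.15, adjusted p = 0.087), and ZFP36 at 18.8 and 21.3 TPM without and 11.6 and 12.4 TPM with it (adjusted p = 0.098).

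At 24 h 3 members were called, 2 higher and 1 lower, where 1.23% of all genes were (0.456% higher and 0.777% lower). PLK2, a kinase of centriole duplication and stress, was at 2.55 and 3.01 TPM without and 7.79 and 6.38 TPM with PF-127 (log2 change 1.09 ± 0.18, adjusted p = 0.014). DUSP6 was at 19.4 and 23.8 TPM without and 35.7 and 33.7 TPM with PF-127 (log2 change 0.67 ± 0.13, adjusted p = 0.033). CSRNP1 was at 8.48 and 9.51 TPM without and 5.33 and 3.66 TPM with it (log2 change -0.88 ± 0.16, adjusted p = 0.027). In each of the 3 the libraries with and without PF-127 did not overlap, as in 42.8% of all genes. PLK2 rose from 4 to 24 h over both arms (0.48 ± 0.13), but without PF-127 alone the change was -0.06 (adjusted p = 0.84). The 24 h libraries fitted alone called none of the 3 (adjusted p = 0.11 for PLK2, 0.15 for DUSP6 and 0.2 for CSRNP1). The count was 0 without either 24 h library without PF-127, 1 without the first with it and 0 without the second.

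Averaged over the 4 times limma called 0 of the 40 members, with 7 at unadjusted p under 0.05, where 0.207% of genes were called, and among those the higher share moved from 32.5% to 19.3% on rescaling. Over all genes, 2351 of 19294 tested were at unadjusted p under 0.05. In the test of whether the difference changes with time limma called 0 members, with 13 at unadjusted p under 0.05, where 0.187% of genes were called. There 2346 of all 19294 genes tested were at unadjusted p under 0.05. ARC came closest (adjusted p = 0.14).

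Across cell types the members spread widely, and 21 of the 44 reached 1 TPM in all 62 libraries. CTR organoids were set against CTR hESC in 1 fit of 10 libraries. In hepatic organoids 27 of 42 tested members rose and 3 fell, where 43.3% of all genes were (25.1% higher and 18.2% lower). In lung organoids 27 rose and 2 fell, where 39.8% of all genes were (20.3% higher and 19.6% lower). In nephron organoids 16 rose and 7 fell, where 52.5% of all genes were (36.7% higher and 15.8% lower). That is 54.8% of the members tested there, a share near that of all genes. In cortical organoids 11 rose and 17 fell, where 52.5% of all genes were (27.0% higher and 25.5% lower). The median log2 changes of the members were 1.35 (hepatic), 1.31 (lung), 0.44 (nephron) and -0.34 (cortical), against 0.08, 0.01, 0.37 and 0.03 over all genes tested. The 4 comparisons share the CTR hESC libraries, and organoids did not overlap hESC in 78.6% (hepatic), 68% (lung), 81.8% (nephron) and 80% (cortical) of all genes. The pluripotency markers summed to 3795 to 4023 TPM in CTR hESC and to between 279 and 2342 TPM in CTR organoids. In cortical CTR most of the sum was SOX2, at 522 to 579 TPM, with POU5F1 at 0 to 0.0885 TPM. In nephron CTR most of it was LIN28A, at 217 to 223 TPM, with POU5F1 at 0 to 0.0971 TPM. The part of cell makeup in the differences was not tested.

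In hepatic organoids FOSL2 was at 122 and 90.1 TPM against 2.76 and 2.97 TPM in hESC (log2 change 4.78 ± 0.20, adjusted p = 2.7e-06). FOS was at 87.2 and 129.6 TPM against 8.42 and 8.82 TPM (log2 change 3.48 ± 0.27, adjusted p = 3.3e-05), and JUNB at 105 and 113 TPM against 13.5 and 9.99 TPM (log2 change 3.12 ± 0.22, adjusted p = 2.2e-05). For each of the 3 the groups did not overlap. Of the FOS and JUN genes, FOSL1, JUN and JUND rose as well, by 0.85 (FOSL1) to 1.85 (JUN), while FOSB, at 0.992 and 0.929 TPM against 1.24 and 0.849 TPM, missed the threshold (-0.05 ± 0.30, adjusted p = 0.91), as did ATF3 (-0.24 ± 0.21, adjusted p = 0.39). ZFP36 rose by 3.06 ± 0.18 on the log2 scale to 94.1 and 131 TPM, and BTG2, IER5L, PLK2 and CSRNP1 were among the 8 largest rises as well. ARC (-1.93 ± 0.21), DUSP6 (-1.13 ± 0.25) and IER2 (-0.70 ± 0.17) were the 3 members that fell. WT hepatic organoids of day 21 had lower means than CTR for FOSL2 (46.9 TPM), FOS (23.4 TPM) and JUNB (46.1 TPM). Not all members were lower there, KLF2 being at 12.3 TPM in WT and 8.78 TPM in CTR. WT and CTR organoids were not compared by a test.

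In lung organoids BTG2, an anti-proliferative gene, was at 215 and 139.6 TPM against 0.532 and 0.615 TPM in hESC (log2 change 6.79 ± 0.19, adjusted p = 2.5e-06). MAFF, a small MAF factor, was at 48.6 and 104 TPM against 4.21 and 4.17 TPM (log2 change 3.80 ± 0.32, adjusted p = 1.0e-04), and NR4A1, an orphan nuclear receptor, at 69.5 and 103 TPM against 13.9 and 13.2 TPM (2.56 ± 0.23). Both libraries of lung organoids lay above those of hESC for these 3 genes. IER5L, DUSP1, JUNB, FOSL2 and FOSB rose by 2.37 (FOSB) to 5.66 (IER5L). MYC (-1.40 ± 0.37) and SPRY4 (-1.23 ± 0.38) were the 2 that fell. WT lung organoids of day 20 had lower means than lung CTR for BTG2 (67.4 TPM), MAFF (11.1 TPM) and NR4A1 (20.8 TPM). MYC was higher in WT, at 48.1 TPM against 34.9 TPM in lung CTR, and no test compared these groups. The lung CTR libraries differed from each other, with JUN at 87.4 and 220.3 TPM and RHOB at 229 and 544 TPM in the first and second. Endothelial markers summed to 36.8 and 191 TPM in the same order, but the same list also summed to 153.8 and 134.5 TPM in CTR hESC. Pluripotency markers summed to 1510 and 2342 TPM in the first and second lung CTR library. The part of these markers in the levels was not tested.

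In cortical organoids SPRY4 was at 0.853 and 1.84 TPM against 111 and 117 TPM in hESC (log2 change -5.65 ± 0.38, adjusted p = 1.3e-05). DUSP5 was at 0.501 and 1.32 TPM against 41.3 and 35.6 TPM (log2 change -4.40 ± 0.43, adjusted p = 7.6e-05), and MYC at 2.97 and 3.98 TPM against 84.2 and 87.8 TPM (log2 change -4.29 ± 0.37, adjusted p = 3.8e-05). None of these pairs overlapped. EGR1 missed the threshold (-0.58 ± 0.39, adjusted p = 0.24). FOS fell to 2.75 and 2.34 TPM (-1.44 ± 0.27) and DUSP6 fell by 2.29 ± 0.25. FOSL1, DUSP2, KLF2 and SGK1 complete the 8 largest falls after SPRY4, DUSP5, MYC and DUSP6. BTG2 (5.56 ± 0.19), IER5L (4.38 ± 0.26), DUSP4 (2.05 ± 0.21), PLK3, HBEGF, DUSP1, JUND and SIK1 were the 8 largest rises.

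In nephron organoids IER5L was at 133 and 106 TPM against 0.649 and 0.139 TPM in hESC (log2 change 6.45 ± 0.26, adjusted p = 2.4e-06). FOSL2 was at 56.0 and 74.4 TPM (4.08 ± 0.20) and PLK2 at 58.6 and 62.8 TPM (4.00 ± 0.26), both clear of hESC. BTG2, JUNB, FOS, DUSP4 and JUN rose by 1.42 (JUN) to 5.02 (BTG2). SPRY4 fell by 2.21 ± 0.38 and ARC by 1.85 ± 0.21, and MYC, FOSL1, HBEGF, SRF and IER2 were the other members that fell, FOSL1 by 1.04 ± 0.29. The median of all genes lay at 0.37 on the deposited log2 scale here, and after rescaling 8 members rose and 11 fell, while among all called genes the higher share moved from 69.9% to 50.0%. On rescaling JUN, JUND, EGR1, DUSP1, KLF6, ZFP36, PLK3 and PPP1R15A lost their call. The count was 11 and 13 without the first and second hESC library, and 15 without either nephron library. BTG2 and IER5L rose in all 4 kinds of organoid and FOSL2 in the 3 other than cortical.

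Over CTR groups the order of EGR1 was hepatic (43.0 ± 11.6 TPM, SD, n = 2), nephron (31.2 ± 14.8), lung (13.9 ± 5.14), hESC (13.4 ± 3.77) and cortical (8.58 ± 2.46). Hepatic and nephron overlap, as do lung and hESC and also lung and cortical, while the other neighbours in this order do not, and hepatic and nephron were called higher than hESC. WT hepatic organoids of day 21 had EGR1 at a mean of only 13.9 TPM. IER2 was at 163 and 144 TPM in hESC, 116 and 103 TPM in nephron, 84.7 and 105 TPM in hepatic, 125 and 146 TPM in lung and 46.6 and 61.6 TPM in cortical organoids. DUSP1 was at 11.8 and 12.6, 21.8 and 17.7, 67.1 and 71.7, 100.2 and 154 and 37.4 and 35.6 TPM in the same order, so that IER2 was lowest in cortical organoids and DUSP1 was not. KLF4 was at 15.8 and 28.1 TPM in hepatic and 14.2 and 26.6 TPM in lung organoids, against 1.58 to 4.48 TPM in the other 3 CTR groups. DUSP6 was at 56.6 and 51.1 TPM in hESC, 32.9 and 36.3 TPM in nephron, 18.9 and 30.7 TPM in hepatic, 57.7 and 43.2 TPM in lung and 12.1 and 8.62 TPM in cortical organoids, the lowest of the 5. SGK1, a kinase induced by serum and glucocorticoids, ranged from 0.203 and 0.270 TPM in cortical to 16.1 and 14.2 TPM in hepatic organoids.

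In hESC the levels of several members also differed between the series, which were not compared by a test. ATF3 was at 61.3 and 75.3 TPM in CTR hESC and at 5.40 to 35.0 TPM over the time course, with no overlap. NR4A1 had a mean of 13.5 TPM in CTR hESC against 1.63 to 3.73 TPM over the course. For DUSP6 these values were 53.9 TPM and 8.97 to 35.7 TPM, and for SPRY4 114 TPM and 34.2 to 81.3 TPM. How many of all genes had no overlap there was not counted. EGR1 was at 16.02 and 10.7 TPM in CTR hESC, within its range of 0.897 to 66.1 TPM over the course but below its 61.7 to 66.1 TPM at 0 h. FOS had a mean of 8.62 TPM in CTR hESC, also below its 28.3 to 31.9 TPM at 0 h. The WT nephron organoids of day 7 had FOS at 3.25 and 6.48 TPM and EGR1 at 7.37 and 8.34 TPM, and the WT lung organoids of day 20 had FOS at 31.3 and 25.4 TPM and EGR1 at 13.5 and 17.4 TPM; neither group entered a comparison. Across the means of the 31 groups, FOS ran most like CSRNP1 (Pearson r = 0.78 on the log2 scale), ZFP36 (r = 0.77) and JUNB (r = 0.69), JUN most like DUSP1 (r = 0.75), and MYC most like SPRY4 (r = 0.93) and DUSP5 (r = 0.81). These are descriptions over groups that share cell types and series.

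**Figure D3:**
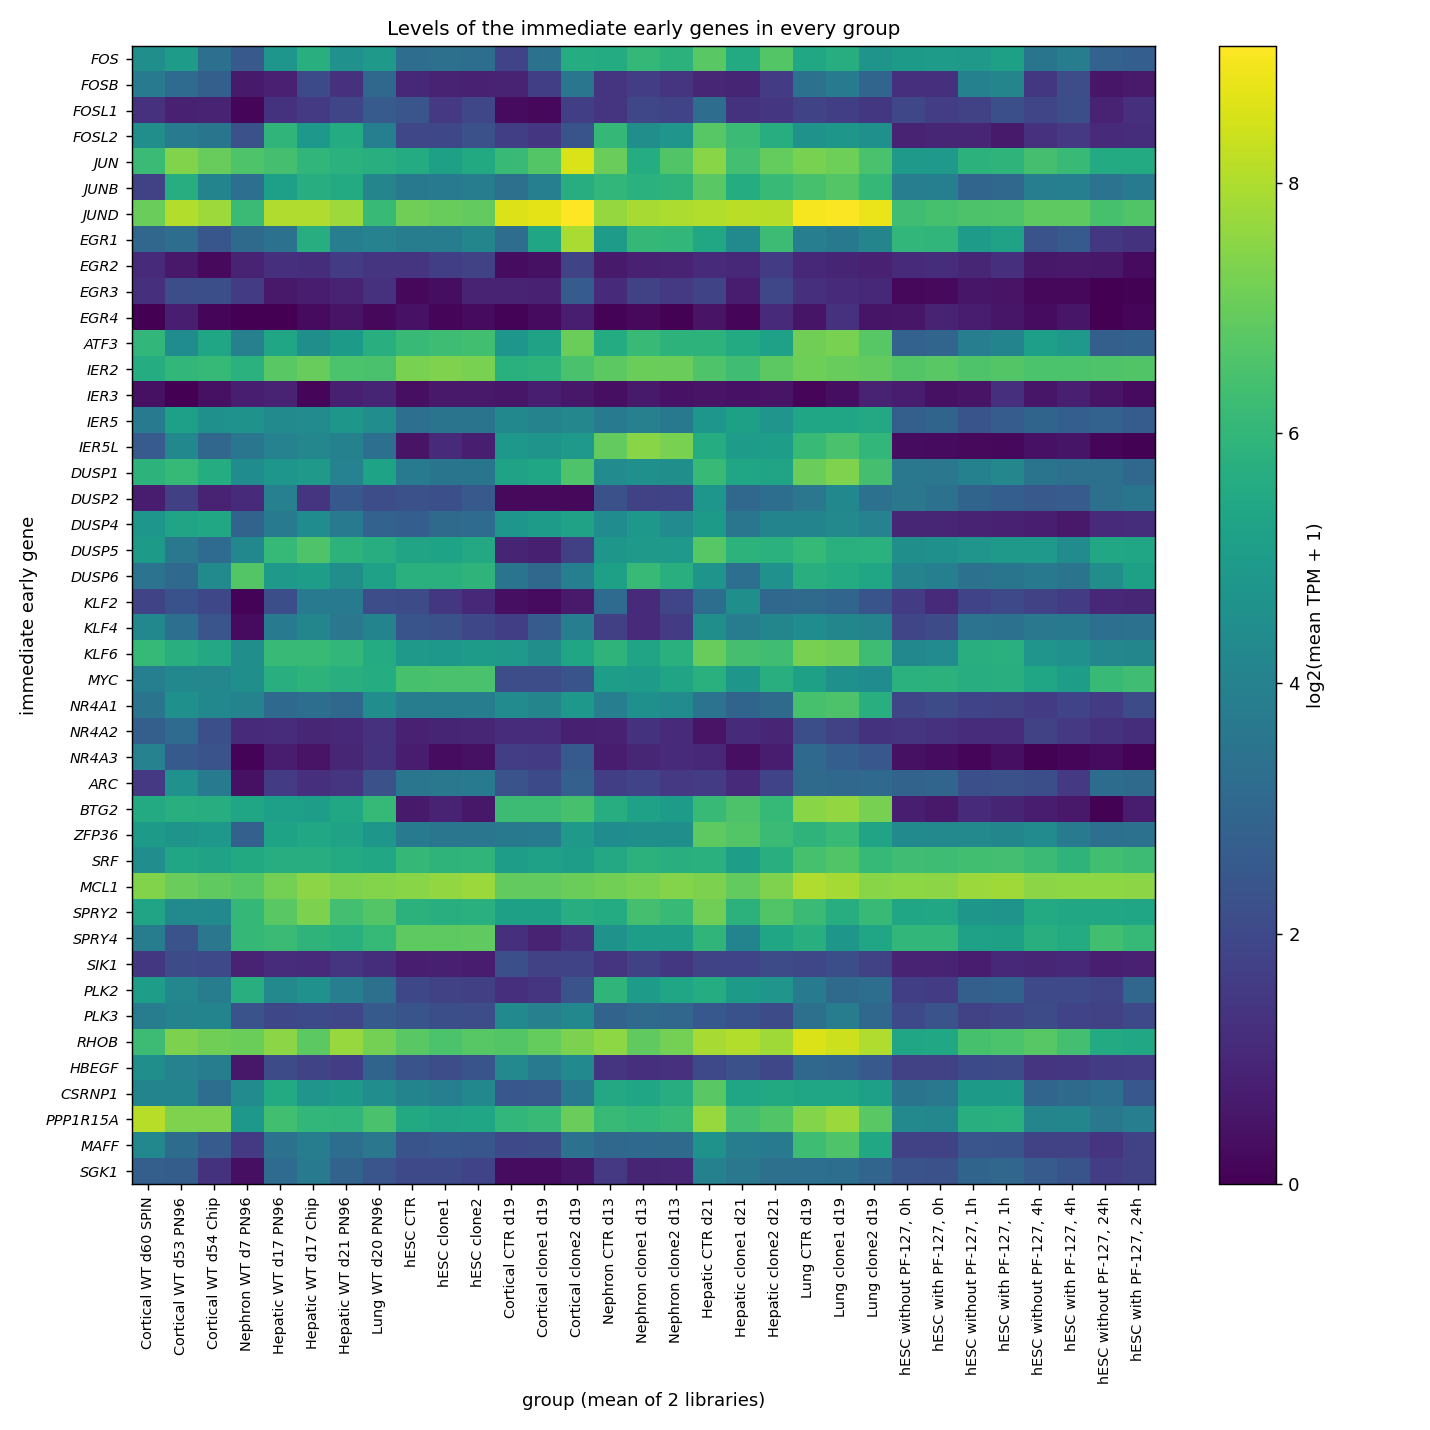
Level of each of the 44 members (rows) in each of the 31 groups (columns) as log2(mean TPM + 1), mean of 2 libraries. BTG2 and IER5L are dark in all hESC groups and brighter in CTR organoids, and MYC and SPRY4 are darker in cortical CTR organoids than in CTR hESC.

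The last series set 2 NEAT1 knockout clones against CTR. NEAT1 RNA is the scaffold of nuclear paraspeckles. It was low in hESC CTR already, at 1.78 to 1.95 TPM. In hESC limma called 0 of 36 tested members with both clones averaged, with 7 at unadjusted p under 0.05, where 0.6% of genes were called. Over all genes, 4187 of 19325 tested were at unadjusted p under 0.05. FOS was at 8.42 and 8.82 TPM in CTR and 7.41 to 10.3 TPM in the clones (log2 change 0.05 ± 0.13, adjusted p = 0.87), and EGR1 at 16.02 and 10.7 TPM and 12.4 to 20.7 TPM. Both overlap. JUN was at 45.9 and 47.6 TPM in CTR, 36.4 and 33.9 TPM in clone 1 and 42.0 and 49.0 TPM in clone 2. JUN was lower in the authors' deposited table for clone 1 (log2 fold change -0.49 ± 0.12, adjusted p = 0.0038), the 1 called member of 41, where 2.19% of genes were called (1.68% lower). JUND was lower in the authors' deposited table for clone 2 (log2 fold change -0.32 ± 0.10, adjusted p = 0.021), 1 of 26, where 7.65% were called (4.45% lower).

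In nephron organoids 10 of 41 tested members were called, 4 higher and 6 lower, where 7.23% of all genes were (2.18% higher and 5.05% lower). The median was 0.15 against -0.04 over all genes. FOSL2 was at 56.0 and 74.4 TPM in CTR, 26.4 and 16.4 TPM in clone 1 and 28.3 and 22.7 TPM in clone 2 (both clones against CTR, -1.45 ± 0.21, adjusted p = 0.015). KLF2, a flow-responsive factor of endothelium, was at 10.3 and 5.73 TPM in CTR and 0.890 to 2.96 TPM in the clones (log2 change -1.63 ± 0.27, adjusted p = 0.02). JUN was at 125 and 129 TPM in CTR, 54.7 and 43.0 TPM in clone 1 and 98.9 and 94.1 TPM in clone 2 (both clones against CTR, -0.88 ± 0.10, adjusted p = 0.0091). In these 3 genes every clone library lay under both CTR libraries, and PLK2, BTG2 and RHOB fell by 0.74 ± 0.10, 0.55 ± 0.09 and 0.52 ± 0.08.

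EGR1 rose in the nephron clones, from 41.7 and 20.8 TPM in CTR to 62.1 and 69.0 TPM in clone 1 and 64.8 and 61.6 TPM in clone 2 (both clones against CTR, 1.10 ± 0.24, adjusted p = 0.046). DUSP6 rose from 32.9 and 36.3 TPM to 49.7 to 75.1 TPM (log2 change 0.79 ± 0.10, adjusted p = 0.012), and SPRY2 from 51.1 and 43.2 TPM to 62.8 to 86.5 TPM (log2 change 0.70 ± 0.11, adjusted p = 0.019). IER5L also rose (0.46 ± 0.10, adjusted p = 0.044), and for each of the 4 all clone libraries lay above both CTR libraries, where 36.2% of all genes had no overlap in either direction. In the same libraries endothelial markers summed to 182 to 186 TPM in CTR and 30.9 to 72.4 TPM in the clones. Stromal markers summed to 3391 to 4905 TPM and 986 to 1602 TPM, and nephron markers to 33.0 to 68.7 TPM and 83.6 to 148 TPM. Pluripotency markers summed to 279 to 318 TPM in CTR and 376 to 632 TPM in the clones. Not every gene went the way of its sum. POU5F1 was at 0 to 0.0971 TPM in CTR and 0 to 0.425 TPM in the clones. LIN28A went from 217 to 223 TPM to 268 to 430 TPM, and SOX2 from 9.53 to 26.4 TPM to 46.1 to 146 TPM. LHX1, a nephron marker, was at 1.11 to 1.60 TPM in CTR and 0.370 to 1.35 TPM in the clones. The part of these markers in the result was not tested.

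The nephron count became 4 without the second CTR library, 6 and 5 without the first and second of clone 1, and 5 and 0 without the first and second of clone 2, and a fit of all 30 libraries gave 2. Clone 2 alone gave 0 called members, with FOSL2 at -1.32 (adjusted p = 0.069). In the authors' deposited table for clone 1, 4 members were higher and 5 lower of 42, where 12.4% of genes were called (5.76% higher and 6.67% lower). In the authors' deposited table for clone 2, 3 of 42 were higher, where 3.77% were called (1.39% higher). DUSP6, SPRY2 and IER5L were higher in both of the authors' deposited tables, which share the CTR libraries.

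In cortical organoids limma called 0 of 39 tested members, with 10 at unadjusted p under 0.05, where 0.0722% of all genes were called. Over all genes, 1504 of 19393 tested were at unadjusted p under 0.05. EGR1 was at 6.84 and 10.3 TPM in CTR, 65.0 and 15.9 TPM in clone 1 and 114 and 370.2 TPM in clone 2 (both clones against CTR, 3.14 ± 0.57, adjusted p = 0.19). FOS was at 2.75 and 2.34 TPM in CTR, 14.2 and 5.57 TPM in clone 1 and 21.7 and 75.8 TPM in clone 2 (both clones against CTR, 2.53 ± 0.48, adjusted p = 0.19). JUN was at 69.5 and 73.2 TPM in CTR, 134 and 65.2 TPM in clone 1 and 175 and 592 TPM in clone 2. For EGR1 and FOS every clone library lay above CTR, where 13.4% of all genes had no overlap, and for all 3 the second library of clone 2 was the highest.

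That library also had the highest ATF3, at 198 TPM against 24.9 to 62.2 TPM in the other 5 cortical libraries of this series. Interferon response genes summed there to 4935 TPM, against 122 to 131 TPM in CTR, 274 and 488 TPM in clone 1 and 581 TPM in the other library of clone 2. Heat shock genes summed to 3506 TPM there, against 1349 to 1401 TPM in CTR, and the part of these genes in the levels was not tested. The count of called members was 0 without that library, 5 without the first of clone 2 and 1 without the second of clone 1. In the authors' deposited table for clone 2, 19 of 42 members were higher and 0 lower, where 2.25% of genes were called (1.3% higher), led by EGR1 (log2 fold change 4.81 ± 0.65), FOS (4.22 ± 0.55) and FOSB (3.60 ± 0.53). For clone 1 the authors' deposited table had 0 of 39 members called, where 0.698% of genes were.

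In hepatic organoids limma called 0 of 41 tested members, with 15 at unadjusted p under 0.05, where 0.00474% of all genes were called. Over all genes, 2307 of 21094 tested were at unadjusted p under 0.05. The median of the members was -0.56 against 0.03 over all genes. CSRNP1 was at 104 and 109 TPM in CTR, 42.9 and 38.9 TPM in clone 1 and 30.9 and 59.6 TPM in clone 2 (both clones against CTR, -1.33 ± 0.26, adjusted p = 0.33). PPP1R15A was at 210.0 and 202 TPM in CTR and 57.5 to 136 TPM in the clones. For both genes every clone library lay under both CTR libraries, where 19.1% of all genes had no overlap. JUN was at 137 and 215 TPM in CTR, 85.7 and 79.8 TPM in clone 1 and 82.5 and 161 TPM in clone 2, and EGR1 at 34.8 and 51.2 TPM, 20.2 and 18.6 TPM and 41.9 and 107 TPM in the same order. For JUN and EGR1 the clones overlap CTR.

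Interferon response genes summed to 1953 and 1204 TPM in hepatic clone 1 and 1049 and 114 TPM in clone 2, against 100.5 to 121 TPM in CTR. Hepatic markers summed to 39071 and 23943 TPM in clone 1 and 24546 and 5086 TPM in clone 2, against 7980.2 to 9719 TPM in CTR. Pluripotency markers summed to 220.1 to 2184 TPM in the clones and 1028 to 1189 TPM in CTR, and stromal markers to 1248 to 7251 and 2410.2 to 4071 TPM. The part of these genes in the levels was not tested. A fit of all 30 libraries gave 9 called members, and the share of all genes called in that fit was not counted. Of 44 members 7 were lower in the authors' deposited table for clone 1, where 2.6% of genes were called (1.0% lower), and of 42 members 7 in the authors' deposited table for clone 2, where 2.66% were called (1.62% lower). FOSL1, CSRNP1 and PPP1R15A were lower in both of the authors' deposited tables, which share the CTR libraries.

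In lung organoids limma called 0 of 43 tested members, with 0 at unadjusted p under 0.05, where 0.0% of genes were called. Over all genes, 595 of 19794 tested were at unadjusted p under 0.05. FOS was at 34.4 and 48.8 TPM in CTR, 38.9 and 60.0 TPM in clone 1 and 26.6 and 24.1 TPM in clone 2. EGR1 was at 10.3 and 17.5 TPM in CTR and 11.1 to 18.7 TPM in the clones, and JUN at 87.4 and 220.3 TPM and 80.9 to 148 TPM. All 3 overlap. Without the first CTR library the count was 5. The authors' deposited tables gave 0 of 44 and 0 of 43 members, where 0.0552% and 0.0894% of genes were called.

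With clones and cell types averaged in 1 fit of 30 libraries, 1 of 32 tested members was called, where 1.18% of all genes were (0.586% lower). FOSL2 fell (log2 change -0.38 ± 0.09, adjusted p = 0.042), and EGR1 missed the threshold (0.85 ± 0.21, adjusted p = 0.054). The FOSL2 call ended with a pseudocount of 0.1 (adjusted p = 0.083). Without 1 library the count was 0 for the hESC libraries other than the second of clone 2, both cortical CTR, the first of cortical clone 1, the second of nephron CTR and of both nephron clones, the first hepatic CTR, the second of hepatic clone 1, both of lung clone 1 and the first of lung clone 2. It was 2 without either library of cortical clone 2 or the first nephron CTR library and 4 without the first lung CTR library. Among all called genes the higher share moved from 50.5% to 36.7% on rescaling for this average and from 33.6% to 19.3% for the knockout in hESC.

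In the test of whether the knockout difference varies by cell type, 6 members were called, FOS, FOSL1, FOSL2, JUNB, EGR1 and CSRNP1, where 2.22% of genes were. The count was 12 without the first library of cortical clone 2, 16 without the second of hepatic clone 2 and 18 without the first lung CTR library. Between clone 2 and clone 1 over all cell types, 8 members and 1779 of all 16217 genes tested were at unadjusted p under 0.05. Clone 2 against clone 1 gave 0 called members by limma, where 0.536% of genes were called. That count was 1 without the first library of cortical clone 1, 2 without the first of cortical clone 2 and 4 without the first of hepatic clone 2.

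**Figure D4:**
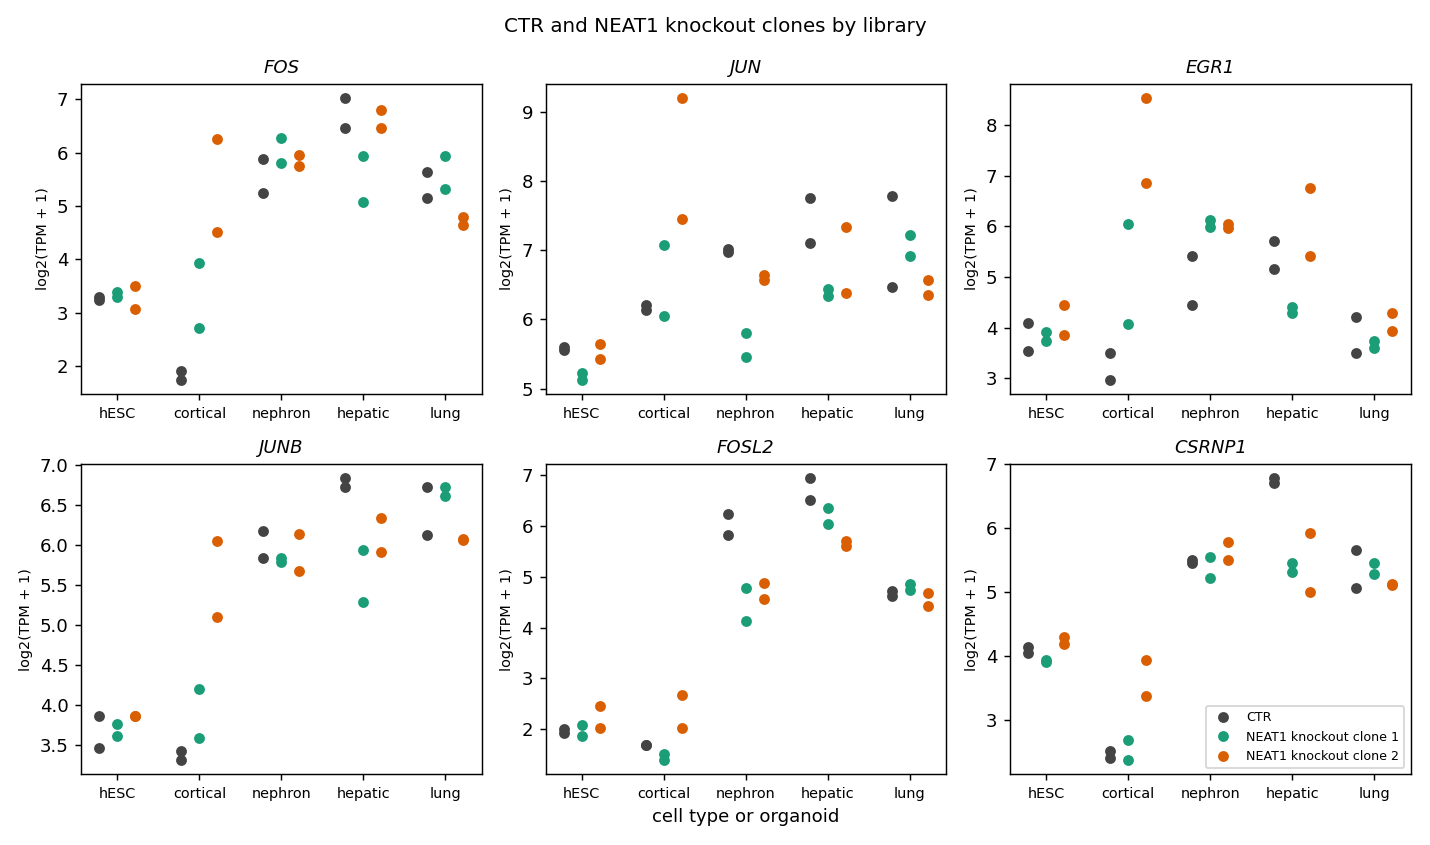
log2(TPM + 1) of 6 members by library in CTR and both NEAT1 knockout clones in hESC and 4 kinds of organoid, 2 libraries per group. Cortical clone 2 lies above cortical CTR for FOS and EGR1, FOSL2 is lower in nephron clones than in nephron CTR, and CSRNP1 is lower in hepatic clones than in hepatic CTR.

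Among WT organoids, cortical organoids under Chip on day 54 were set against PN96 on day 53. Of 43 tested members 4 were called, 1 higher and 3 lower, where 1.57% of all genes were (0.93% higher and 0.636% lower). JUNB was at 43.7 and 55.8 TPM under PN96 and 17.8 and 14.2 TPM under Chip (log2 change -1.58 ± 0.34, adjusted p = 0.047). SGK1 was at 4.45 and 6.36 TPM and 1.48 and 1.53 TPM (log2 change -1.34 ± 0.25, adjusted p = 0.025), and IER5L at 18.9 and 16.9 TPM and 4.96 and 8.89 TPM (log2 change -1.29 ± 0.22, adjusted p = 0.016). SPRY4 rose from 3.45 and 4.69 TPM to 10.97 and 11.3 TPM (log2 change 1.27 ± 0.27, adjusted p = 0.044), and in none of the 4 did the groups overlap, as in 47.6% of all genes. FOS missed the threshold, at 27.6 and 33.4 TPM under PN96 and 8.12 and 9.75 TPM under Chip (adjusted p = 0.064). After rescaling 0 members rose and 2 fell, JUNB and SPRY4 losing their call, and among all called genes the higher share moved from 59.4% to 35.3%.

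That count was 0 without either PN96 cortical library and 1 without either Chip cortical library. It also fell to 1 without either hepatic Chip library and to 2 without either nephron library, either hepatic day 17 PN96 library or the second hepatic day 21 library, which enter through the shared spread. The day of sampling differs between these groups as well.

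Cortical organoids under SPIN on day 60 differed more broadly from PN96 on day 53. Of 43 tested members 10 were higher and 10 lower, 46.5% of them, where 42.9% of all genes were (20.1% higher and 22.8% lower), so the members' share lay near that of all genes. JUNB fell to 2.04 and 2.84 TPM (log2 change -3.88 ± 0.34, adjusted p = 3.6e-06) and ARC from 18.9 and 27.9 TPM to 3.19 and 0.435 TPM (log2 change -3.29 ± 0.40, adjusted p = 4.7e-05). ATF3 rose from 22.2 and 18.7 TPM to 60.5 and 66.1 TPM (log2 change 1.59 ± 0.25, adjusted p = 2.8e-04). None of these groups overlapped, as in 65.5% of all genes. JUN, IER5, IER5L, NR4A1, RHOB and JUND fell by 1.03 (JUND) to 1.63 (IER5L), and SPRY4, NR4A3, DUSP5, MAFF, SPRY2, PPP1R15A and FOSL2 rose by 0.72 (FOSL2) to 1.46 (SPRY4). Day and condition cannot be told apart here. Cortical markers summed to 573 to 679 TPM under SPIN and 1322 to 1823 TPM under PN96, stromal markers to 412 to 3015 TPM and 44.7 to 49.7 TPM, and myeloid markers to 66.0 to 86.0 TPM and 16.8 to 19.6 TPM. Their part in the result was not tested.

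In hepatic organoids on day 17, Chip against PN96 gave 6 called members of 43, 3 higher and 3 lower, where 9.05% of all genes were (0.93% higher and 8.12% lower). EGR1 was at 9.34 and 10.2 TPM under PN96 and 42.7 and 57.8 TPM under Chip (log2 change 2.23 ± 0.23, adjusted p = 8.0e-04). KLF2 was at 2.28 and 4.80 TPM and 11.7 and 13.1 TPM (log2 change 1.62 ± 0.40, adjusted p = 0.03), and SPRY2 at 113 and 101 TPM and 157 and 158 TPM (log2 change 0.56 ± 0.15, adjusted p = 0.037). DUSP2, an inducible nuclear phosphatase, fell from 14.1 and 15.02 TPM to 1.73 and 1.51 TPM (log2 change -2.57 ± 0.40, adjusted p = 0.0046), FOSL2 fell by 1.07 ± 0.24 and RHOB by 0.71 ± 0.16. For none of the 6 did the groups overlap, as was the case for 58.7% of all genes. The median of all genes lay at -0.19 on the deposited log2 scale. After rescaling 4 members rose and 1 fell, FOSL2 and RHOB losing their call, and among all called genes the higher share moved from 10.3% to 45.0%. The count was 2 without the first PN96 library and 2 without either Chip library. Stromal markers summed to 2074 to 5231 TPM under PN96 and 1468 to 1539 TPM under Chip, endothelial markers to 186 to 243 and 137 to 140.4 TPM, hepatic markers to 2932 to 5209 and 5978 to 6315 TPM, and pluripotency markers to 1365 to 1666 and 1876 to 2036 TPM. Their part in the result was not tested.

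Hepatic organoids under PN96 on day 21 against day 17 gave 0 called members of 43 by limma, with 6 at unadjusted p under 0.05, where 1.33% of genes were called, and among those the higher share moved from 57.8% to 44.5% on rescaling. Over all genes, 3835 of 24512 tested were at unadjusted p under 0.05. FOS was at 31.2 and 21.5 TPM on day 17 and 22.6 and 24.2 TPM on day 21. EGR1 was at 9.34 and 10.2 TPM and 16.7 and 11.2 TPM, and JUN at 88.5 and 78.8 TPM and 52.7 and 56.4 TPM. FOS overlaps between the days, while EGR1 and JUN do not, as was the case for 44.5% of all genes. Without the first day 21 library 1 member was called.

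**Figure D5:**
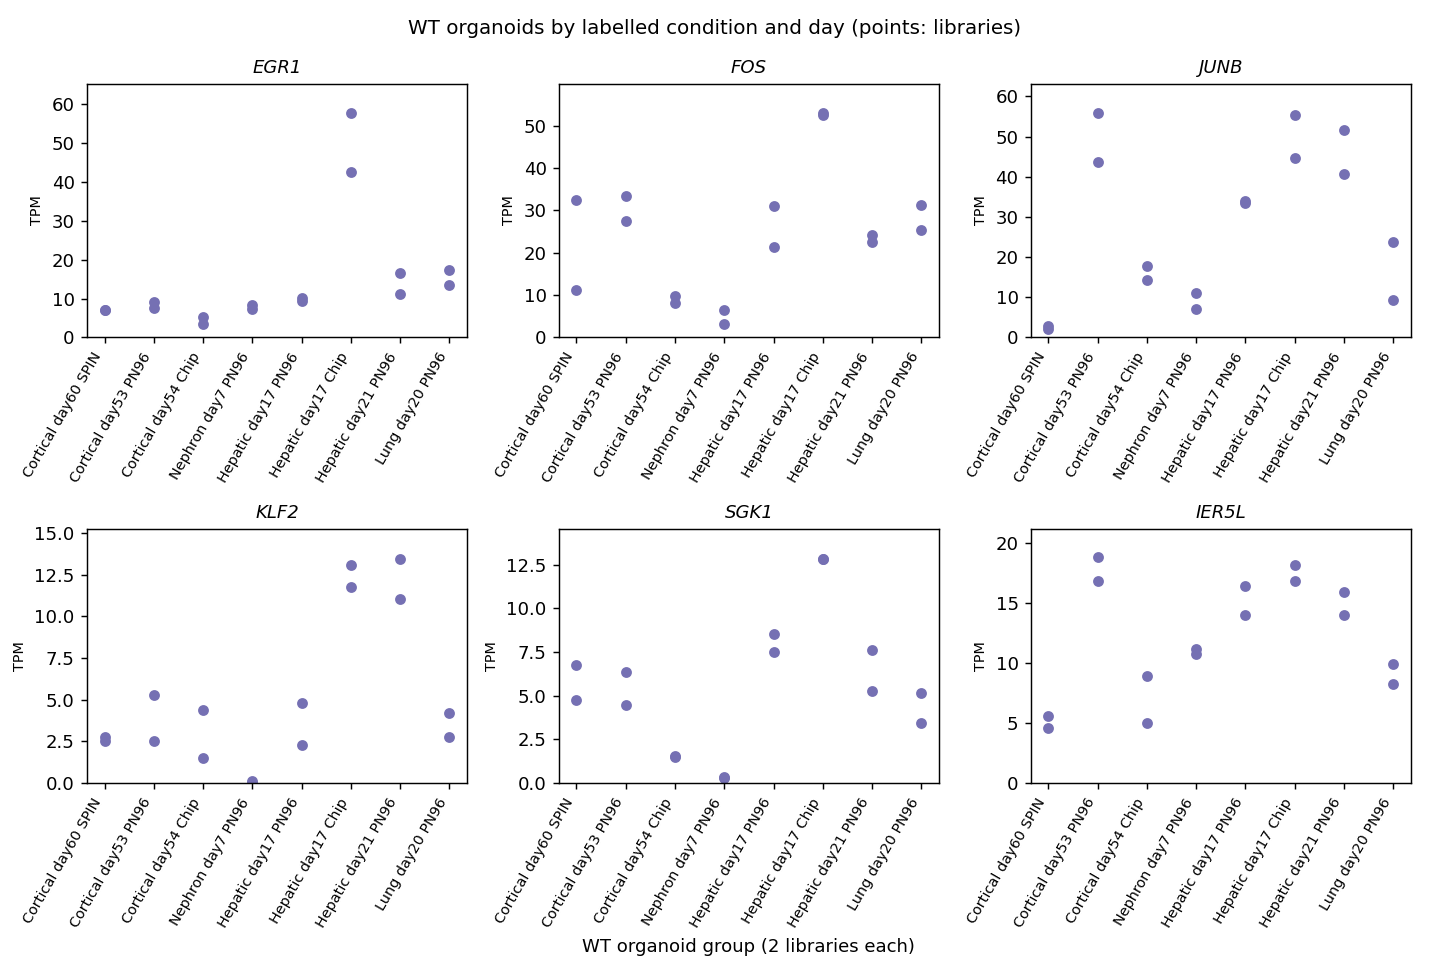
TPM (vertical axes, from 0) of 6 members in each WT organoid library, 2 points per group, by tissue, day and labelled condition. EGR1 stands at 42.7 and 57.8 TPM in hepatic Chip organoids against 9.34 and 10.2 TPM in hepatic PN96 organoids of day 17, and JUNB at 2.04 and 2.84 TPM in cortical SPIN organoids against 43.7 and 55.8 TPM under PN96 on day 53.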

How the data were processed

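RNA-seq of polyA RNA was measured in 62 libraries. Per the submitters' processing notes, FastQC 0.11.9, Trim Galore 0.6.7, cutadapt 4.1, STAR 2.7.10a, featureCounts 2.0.1, DESeq2 1.36.0 and R 4.2.0 were used with GRCh38. The authors deposited TPM per gene and library. The authors also deposited 10 tables of a clone against CTR, which hold a log2 fold change with its standard error, a test statistic (a score), a p-value and an adjusted p-value. Which settings made them, and whether counting used strand, is not given in the sources used here, so overlapping and antisense genes are uncertain. Counts were not used here, and no interval for counting error is given. A library held 16989 to 20396 genes at 1 TPM or more, 0 pairs of libraries were identical, and libraries of a group correlated at 0.969 to 0.993.

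Differences were tested, two-sided, with limma 3.58.1 (R 4.3.3), its variance prior set to trend with mean log2(TPM + 1), and p-values adjusted for the false discovery rate (Benjamini-Hochberg) across every gene in the fit. Separate fits held the 16 libraries of the time course, the 6 of each cell type with its clones, the 30 of all clones and CTR for the average, the interaction and the clone contrast, the 10 of CTR, and the 16 of WT organoids. In the 30-library fits genes had to reach 1 TPM in at least 2 libraries in each cell type. The sign of NEAT1 gave the direction of the authors' tables. The procedure was tested on simulated data. Named members are those called with the largest changes, up to 8 in each direction, FOS, EGR1 and JUN where none was called, 10 members for levels (FOS, JUN, EGR1, ATF3, IER2, DUSP1, DUSP6, KLF4, MYC and SGK1), and up to 3 called genes in each direction from other lists, or the first 2 listed. Further members named for their levels were chosen after their values were seen. The members and lists were chosen with earlier results of these data known. Promoters came from RefSeq (GRCh38.p14). Alternatives were a pseudocount of 0.1, no filter, size-factor rescaling, a replicate block, single libraries left out, single times, arms or clones, and fits with more or fewer libraries.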

Additional observations from a re-analysis of the deposited data

Results flagged for a closer look

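The difference between NEAT1 knockout clones and CTR was called as varying by cell type for 6 members, by the interaction test in limma over 30 libraries. That fit shares 1 spread per gene over all groups, although the spread differed between them. The median log2 difference of the members between the libraries of a group was 0.67 in cortical clone 2 and 0.15 in hESC CTR. The second library of cortical clone 2, with 4935 TPM of interferon response genes, was the highest cortical library for FOS and EGR1. For FOSL2 (adjusted p = 0.0071) the log2 change was -1.45 ± 0.21 in nephron, -0.80 ± 0.18 in hepatic and 0.21 ± 0.26 in cortical organoids, and 0.15 ± 0.17 in hESC. For CSRNP1 (adjusted p = 0.0081) it was -1.33 ± 0.26 in hepatic, 0.63 ± 0.22 in cortical and 0.03 ± 0.13 in nephron organoids. For JUNB (adjusted p = 0.0094) it was 1.37 ± 0.27 in cortical and -0.91 ± 0.22 in hepatic organoids. For FOS (adjusted p = 0.013) it was 2.53 ± 0.48 in cortical, 0.38 ± 0.21 in nephron and -0.68 ± 0.29 in hepatic organoids. For FOSL1 (adjusted p = 0.014) it was -1.90 ± 0.39 in hepatic and 0.67 ± 0.34 in cortical organoids. For EGR1 (adjusted p = 0.027) it was 3.14 ± 0.57 in cortical, 1.10 ± 0.24 in nephron and -0.21 ± 0.37 in hepatic organoids. Of the differences within 1 cell type given here, those of FOSL2 and EGR1 in nephron organoids passed their own test and the others did not. With 2 libraries a group, single libraries were not screened within groups.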

How the results depend on the processing

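Over 244 called member values, 233 kept direction and call with a pseudocount of 0.1, 223 without a filter on low values and 224 on rescaling by size factors, and the others kept their direction and lost the call. With 1 library left out, 167 of the 244 kept direction and call each time and 0 reversed. For PLK2, 24 h against 4 h, the libraries without PF-127 gave -0.0554, a reversed sign, and the cause was not tested.

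Members called at 1 h against 0 h numbered 22, and 10 or 11 with only the libraries without or with PF-127, where fewer libraries enter. PF-127 at 4 h went from 1 to 0 without the filter and 0 for that time alone, and PF-127 at 24 h from 3 to 1 and 0. The knockout in nephron organoids went from 10 to 0 for clone 2 alone and 2 in the fit of all 30 libraries, in cortical organoids from 0 to 1 and 3, and in hepatic organoids from 0 to 9 in that fit. The average over cell types went from 1 to 0 with the pseudocount of 0.1, and cortical Chip from 4 to 2 without the filter and 2 rescaled. Outside the smaller fits the cause was not tested. The share of all genes called was not counted in these alternatives or with 1 library left out. Whether a changed count is particular to the members can thus not be said.

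Leaving out 1 library gave counts of 0 to 3 for PF-127 at 4 h and at 24 h, 0 to 5 for the knockout in cortical and in lung organoids, 0 to 9 in nephron and 0 to 1 in hepatic organoids, 0 to 4 for the knockout average and for clone 2 against clone 1, and 4 to 18 for the interaction. It gave 11 to 30 for nephron organoids against hESC, 0 to 5 for cortical Chip, 2 to 8 for hepatic Chip and 0 to 1 for hepatic day 21 against day 17.

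The labels tie no batch to the replicate numbers, and same-numbered libraries deviated together weakly (correlations from -0.10 to 0.32), so the numbers were not treated as pairs. With the replicate block 232 of the 244 values kept call and direction, PF-127 at 4 h went to 0, the knockout average went to 0 (FOSL2 adjusted p = 0.054), and no other count moved by more than 1.5 times. Depth, unknown here, limits what can be said of members near 0 TPM.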
